A study of Mus musculus with 8 samples.

Results

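The Dlk1-Dio3 locus is an imprinted domain of mouse chromosome 12, represented here by 6 genes of the 50902 measured: the long noncoding RNAs Meg3, Rian and Mirg, and the protein-coding genes Dlk1, Rtl1 and Dio3. The members were found by their gene symbols, and the set was chosen by the difference of these same levels between the groups, which was already known. Their levels and differences are therefore given as a description, without a test. RNA was sequenced from E14 mouse embryonic stem cells (ESCs), an established line, grown in N2B27 medium with LIF and 2i, a pair of kinase inhibitors that holds ESCs in a ground state. All 8 libraries came from cells transfected with an siRNA against Baz2a and collected 3 days later, and all cells carried a Flag- and HA-tagged BAZ2A transgene that this siRNA does not target, inserted with PiggyBac transposase. The transgene was wild type in 4 libraries (ESC + F/H-BAZ2ArWT, WT in the plots) and lacked TAM, the RNA-binding domain of BAZ2A, in the other 4 (ESC + F/H-BAZ2ArΔTAM). BAZ2A is a subunit of a chromatin remodelling complex, and the comparison asks what the loss of its TAM domain changes. There was 1 transgenic line for each condition, so the domain and the line cannot be told apart. Nothing states that the libraries came from separate cultures, and the spread between them may be technical.

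Imprinted genes are expressed from 1 parental chromosome only. At this locus the noncoding RNAs are made from the maternal chromosome and Dlk1, Rtl1 and Dio3 from the paternal one, under the control of an intergenic region upstream of Meg3 that is methylated on the paternal copy. In mouse pluripotent cells the maternal noncoding RNAs are known to vary between lines, and lines that silence them have less developmental potential. The libraries hold no information on the parental origin of a read, so what follows are levels from the 2 chromosomes together. In cell populations, fewer cells that express a gene and less RNA per cell cannot be told apart.

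Libraries held 7267894 to 7700001 reads on genes in ESC + F/H-BAZ2ArWT and 6573212 to 8680058 in ESC + F/H-BAZ2ArΔTAM. Baz2a, to which the siRNA target and the transgene both contribute, stood at 9.95 to 11.2 RPKM in ESC + F/H-BAZ2ArWT and at 17.0 to 18.9 RPKM in ESC + F/H-BAZ2ArΔTAM. The 8 ESC markers were all expressed, and their summed level was 364 to 374 RPKM in ESC + F/H-BAZ2ArWT and 296 to 323 RPKM in ESC + F/H-BAZ2ArΔTAM, with 4 of the 8 lower by limma at an adjusted p under 0.05 and none higher. Marker lists of extraembryonic endoderm, trophectoderm, neuroectoderm, mesoderm and fibroblasts summed to at most 1.58 RPKM each, with Afp and Col3a1 at 0 in all libraries. The neuroectoderm sum was 0.506 to 0.639 RPKM in ESC + F/H-BAZ2ArWT and 0.262 to 0.308 RPKM in ESC + F/H-BAZ2ArΔTAM, with 1 of its 4 markers tested and called lower. The mesoderm sum was 0.85 to 0.94 RPKM against 0.658 to 0.841 RPKM, with 1 of the 2 markers tested called lower, and neither sum overlapped between the groups. The sums of trophectoderm (1.24 to 1.32 RPKM against 1.30 to 1.58 RPKM, 1 of the 2 markers tested called higher), extraembryonic endoderm (0.0162 to 0.0405 against 0.0316 to 0.0583) and fibroblasts (0.0112 to 0.0187 against 0.0102 to 0.0332) overlapped. The part of these marker differences in the values of the locus was not tested.

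The genes lie in the order Dlk1, Meg3, Rtl1, Rian, Mirg and Dio3 over 828 kb of mm10, all on the plus strand but for Rtl1. The table places Dlk1 at chr12:109452823-109463336, Meg3 at chr12:109541001-109571726, Rtl1 at chr12:109589193-109600330, Rian at chr12:109603940-109661716, Mirg at chr12:109729764-109749460 and Dio3 at chr12:110279068-110281097. RefSeq windows around the start site (GRCm38.p6, which is mm10) were matched for 5 of the 6 genes, with none for Rtl1. They are shown for Meg3 and Rian, whose levels were lower in ESC + F/H-BAZ2ArΔTAM, and for Dlk1 and Dio3, whose mean levels were higher. The Meg3 window is chr12:109540746-109541045 and the Rian window chr12:109603695-109603994, each of 250 bases before and 50 from the start site on. The Dlk1 window is chr12:109452573-109452822 and the Dio3 window chr12:110278980-110279229, each of the 250 bases before the start site. All are on the plus strand, and capitals mark matches to 5 motifs searched on both strands: the cAMP response element TGACGTCA, the TATA box TATAAA, the CCAAT box CCAAT, the GC box GGGCGG, and TGCCGC, the hexamer bound by the imprint regulator ZFP57 when methylated.
Meg3: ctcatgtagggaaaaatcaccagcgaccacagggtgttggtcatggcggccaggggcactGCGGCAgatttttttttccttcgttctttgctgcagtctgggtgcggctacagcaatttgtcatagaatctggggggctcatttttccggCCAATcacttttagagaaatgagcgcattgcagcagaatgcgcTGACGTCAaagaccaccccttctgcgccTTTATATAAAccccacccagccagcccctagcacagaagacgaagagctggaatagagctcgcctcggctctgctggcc
Rian: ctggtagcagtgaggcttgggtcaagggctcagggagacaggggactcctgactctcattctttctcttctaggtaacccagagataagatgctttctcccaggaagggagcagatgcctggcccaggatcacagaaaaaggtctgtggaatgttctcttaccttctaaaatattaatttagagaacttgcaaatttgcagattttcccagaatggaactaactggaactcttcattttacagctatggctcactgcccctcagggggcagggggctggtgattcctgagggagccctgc
Dlk1: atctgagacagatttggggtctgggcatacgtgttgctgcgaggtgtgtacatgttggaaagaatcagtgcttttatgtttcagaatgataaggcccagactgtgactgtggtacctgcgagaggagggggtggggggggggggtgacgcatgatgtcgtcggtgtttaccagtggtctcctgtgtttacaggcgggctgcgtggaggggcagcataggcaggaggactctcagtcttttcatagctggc
Dio3: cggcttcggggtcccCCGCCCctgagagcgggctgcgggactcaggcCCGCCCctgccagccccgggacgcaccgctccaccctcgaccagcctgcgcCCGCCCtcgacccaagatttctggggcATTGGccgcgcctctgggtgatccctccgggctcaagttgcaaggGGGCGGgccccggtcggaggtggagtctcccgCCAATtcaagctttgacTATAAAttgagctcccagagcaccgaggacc

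The Meg3 window holds the cAMP response element 57 bases before the start site, a motif found in 1.79% of the 32817 start-site windows of the RefSeq table. It also holds the TATA box on both strands in overlapping matches 29 and 25 bases before the start (13.6% of windows), a CCAAT box 100 bases before it (37.4%) and the ZFP57 hexamer 190 bases before it on the minus strand (11.6%). The Dio3 window holds a TATA box 31 bases before the start, 2 CCAAT boxes and 4 GC boxes. Among the 250-base windows, 12.4% hold a TATA box, 33.8% a CCAAT box and 32.7% a GC box. No match to the 5 motifs was found in the Rian or Dlk1 window, which says only that these letters are not there. The Meg3 window has 13 CpG dinucleotides and the Rian window 0, with a median of 7 over all windows of 300 bases. A second RefSeq start of Meg3, 4397 bases after the start in the table, has a window with 1 CpG.

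The second kind of sequence that bears on the values is that of the microRNAs, the short RNAs that pair with messenger RNAs through their seed, bases 2 to 8. RefSeq lists 58 hairpins between Dlk1 and Dio3, 54 of them on the plus strand, with 113 mature miRNAs and 104 distinct seeds. Mirg contains 14 of the hairpins, Rian 3, Meg3 1 and Rtl1 7. Of the 7 inside Rtl1, 6 lie on the strand opposite to it, within its coding sequence, and are cut from a maternal antisense transcript. Several of them are known to guide cleavage of Rtl1 messenger RNA, to which they are fully complementary. They are shown because the strand used in counting is not stated, so that reads of Rtl1 and of this antisense transcript cannot be told apart. Their 11 mature miRNAs follow, each 5′ to 3′ with the seed in capitals.
miR-431-5p: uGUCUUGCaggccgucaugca
miR-431-3p: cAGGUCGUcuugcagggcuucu
miR-433-5p: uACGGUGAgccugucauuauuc
miR-433-3p: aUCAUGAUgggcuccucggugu
miR-127-5p: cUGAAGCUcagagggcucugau
miR-127-3p: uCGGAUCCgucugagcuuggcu
miR-434-5p: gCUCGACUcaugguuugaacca
miR-434-3p: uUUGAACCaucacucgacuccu
miR-432: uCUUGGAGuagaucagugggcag
miR-136-5p: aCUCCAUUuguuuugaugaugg
miR-136-3p: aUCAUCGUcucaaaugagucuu

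No 2 of these 11 miRNAs share a seed with each other or with another mature miRNA of the locus. The mature miRNAs of the locus share 9 seeds, each between a pair, and a single pair lies in a single member, Mirg:
miR-453: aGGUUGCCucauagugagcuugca
miR-496a-5p: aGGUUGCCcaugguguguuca

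These libraries were enriched for polyadenylated RNA, and mature miRNAs are too short to be counted in them. The table has 67 miRNA entries in the interval, of which 23 had a read in some library and none more than 5 reads in a library. The 6 hairpins opposite to Rtl1 had no read in any library. The entries of Mirg, Rian and Meg3 thus describe the long host transcripts, not the small RNAs cut from them.

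Meg3, the first gene of the maternal transcription unit, is a long noncoding RNA that stays in the nucleus and binds Polycomb proteins. In ESC + F/H-BAZ2ArWT it stood at 2.92, 2.76, 2.75 and 3.09 RPKM in replicates 1 to 4, from 4467, 4361, 4109 and 4894 reads. In ESC + F/H-BAZ2ArΔTAM the values were 2.24, 1.82, 1.88 and 2.00 RPKM, from 3105, 2453, 3080 and 3571 reads. All 4 libraries of ESC + F/H-BAZ2ArΔTAM were below all 4 of ESC + F/H-BAZ2ArWT. The mean was 2.88 ± 0.161 RPKM (SD, n = 4) against 1.98 ± 0.183 RPKM (n = 4), 31.0% lower. On the log2(RPKM + 0.1) scale the difference was -0.52 with an SE of 0.067, and in limma-voom on the recovered reads it was -0.54 with an SE of 0.049.

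Rian, which follows Meg3 on the same strand and hosts C/D box small nucleolar RNAs (snoRNAs), had nearly the same difference. Its level in ESC + F/H-BAZ2ArWT was 2.02, 1.88, 1.87 and 2.00 RPKM, from 5249 to 5960 reads a library. In ESC + F/H-BAZ2ArΔTAM it was 1.50, 1.27, 1.29 and 1.34 RPKM, from 3205 to 4507 reads. The groups did not overlap, with means of 1.94 ± 0.0790 RPKM and 1.35 ± 0.106 RPKM (SD, n = 4 each) and a level 30.4% lower in ESC + F/H-BAZ2ArΔTAM. The log2 difference of RPKM + 0.1 was -0.49 with an SE of 0.055, and that of reads -0.52 with an SE of 0.042.

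Mirg, the last noncoding RNA of the unit and the host of a miRNA cluster, differed less. It stood at 0.383, 0.392, 0.389 and 0.358 RPKM in ESC + F/H-BAZ2ArWT, from 364 to 398 reads, and at 0.366, 0.323, 0.323 and 0.340 RPKM in ESC + F/H-BAZ2ArΔTAM, from 279 to 389 reads. Replicate 1 of ESC + F/H-BAZ2ArΔTAM was above replicate 4 of ESC + F/H-BAZ2ArWT, so the groups overlapped. The means were 0.381 ± 0.0155 RPKM and 0.338 ± 0.0203 RPKM (SD, n = 4 each), 11.2% lower in ESC + F/H-BAZ2ArΔTAM. The log2 difference of RPKM + 0.1 was -0.13 with an SE of 0.041, and that of reads -0.17 with an SE of 0.062.

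**Figure D1:**
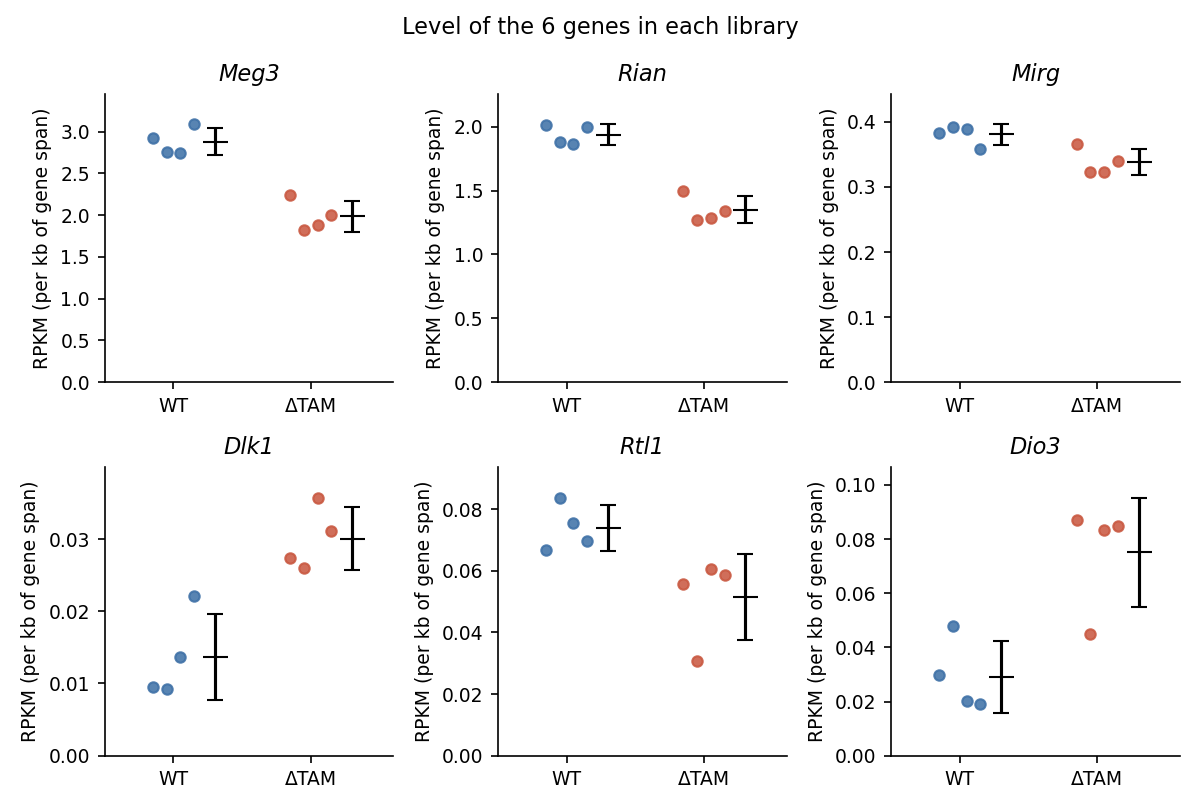
Level of each gene in RPKM (per kilobase of gene span; y axis from 0, own scale per gene) in the 4 WT and 4 ΔTAM libraries, shown as points, with the mean and 1 SD as a bar at their right. The ΔTAM points of Meg3, Rian and Rtl1 lie below all WT points and those of Dlk1 above them, while the groups overlap for Mirg and Dio3.

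Dlk1, a paternally expressed transmembrane protein with EGF-like repeats that is related to the Notch ligands, was close to the limit of detection. In ESC + F/H-BAZ2ArWT it had 5, 5, 7 and 12 reads, or 0.0096, 0.0092, 0.0137 and 0.0221 RPKM. In ESC + F/H-BAZ2ArΔTAM it had 13, 12, 20 and 19 reads, or 0.0274, 0.0261, 0.0357 and 0.0311 RPKM. Every library of ESC + F/H-BAZ2ArΔTAM had a higher RPKM than every library of ESC + F/H-BAZ2ArWT, although the read numbers touch at 12. The mean level was 0.0136 ± 0.0060 RPKM against 0.0301 ± 0.0043 RPKM (SD, n = 4 each), a ratio of 2.20. The log2 difference of reads was 1.17 with an SE of 0.31, and that of RPKM + 0.1, where the pseudocount exceeds the levels, was 0.20 with an SE of 0.043.

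Rtl1, a retrotransposon-derived Gag-like protein needed for placental development, had 37, 48, 41 and 40 reads in ESC + F/H-BAZ2ArWT, or 0.0668, 0.0837, 0.0756 and 0.0696 RPKM. In ESC + F/H-BAZ2ArΔTAM it had 28, 15, 36 and 38 reads, or 0.0556, 0.0307, 0.0606 and 0.0587 RPKM. The groups did not overlap in RPKM, and replicate 2 of ESC + F/H-BAZ2ArΔTAM was far below the others. The mean was 0.0739 ± 0.0075 RPKM and 0.0514 ± 0.0140 RPKM (SD, n = 4 each), 30.4% lower in ESC + F/H-BAZ2ArΔTAM. The log2 difference of reads was -0.53 with an SE of 0.20, and that of RPKM + 0.1 was -0.20 with an SE of 0.075, or -0.13 without replicate 2 of ESC + F/H-BAZ2ArΔTAM. Although Rtl1 is annotated as a paternal gene, its reads were lower in ESC + F/H-BAZ2ArΔTAM as those of the maternal RNAs were, while those of Dlk1 were higher. The share of reads from the antisense transcript was not tested.

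Dio3, the deiodinase that inactivates thyroid hormone, had 3, 5, 2 and 2 reads in ESC + F/H-BAZ2ArWT and 8, 4, 9 and 10 reads in ESC + F/H-BAZ2ArΔTAM. These are 0.0297, 0.0479, 0.0202 and 0.0191 RPKM against 0.0872, 0.0450, 0.0832 and 0.0849 RPKM. Replicate 2 of ESC + F/H-BAZ2ArΔTAM lay within the range of ESC + F/H-BAZ2ArWT, and the other 3 libraries were above it. The means were 0.0292 ± 0.0133 RPKM and 0.0751 ± 0.0201 RPKM (SD, n = 4 each), a ratio of 2.57. The log2 difference of RPKM + 0.1 was 0.44 with an SE of 0.11, and the reads were too few for the voom fit. With 12 reads in all of ESC + F/H-BAZ2ArWT and 31 in all of ESC + F/H-BAZ2ArΔTAM, the size of the difference is poorly known.

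Of the 6 genes, 3 (Meg3, Rian and Mirg) had a mean of at least 0.1 RPKM, and 2 of these were lower in ESC + F/H-BAZ2ArΔTAM without overlap, against 16.7% of the 9000 genes at that level. With a mean of at least 10 reads there were 5, all but Dio3. Of these, 3 were lower without overlap, against 18.7% of 12657 genes, and 1 was higher, against 19.1%. Since the contrast chose the set, nothing is read from these counts. Among the log2 differences of reads of the 12657 genes, that of Meg3 lay at percentile 7.73, Rtl1 at 7.85, Rian at 7.99, Mirg at 27.4 and Dlk1 at 98.7.

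**Figure D2:**
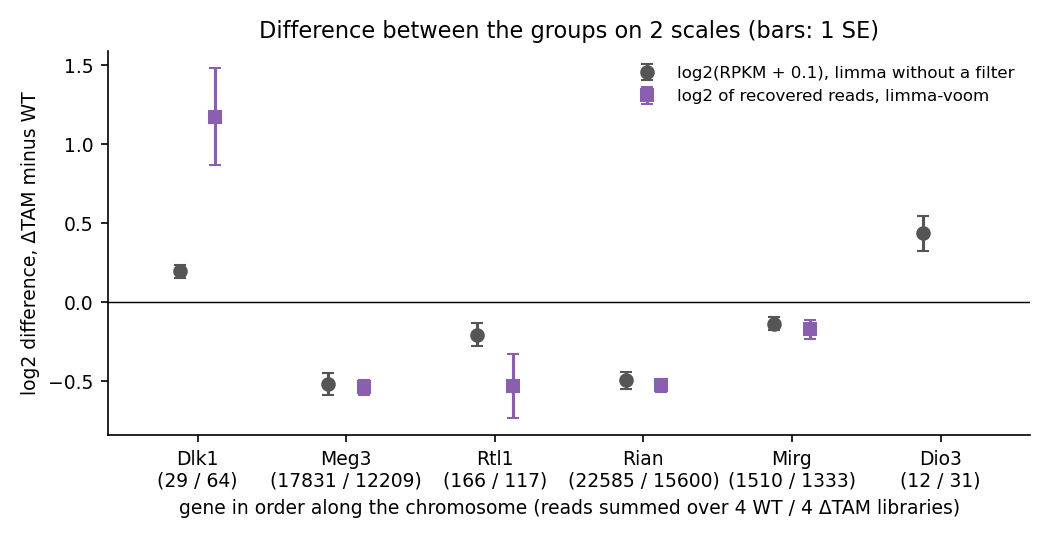
Log2 difference between ΔTAM and WT (y axis) for the 6 genes in their order on the chromosome (x axis, with reads summed over the 4 libraries of each group), on log2(RPKM + 0.1) from limma without a filter (circles) and on recovered reads from limma-voom (squares), with bars of 1 SE. Meg3, Rian and Mirg have close values on the 2 scales, while Dlk1 goes from 0.20 to 1.17 and Rtl1 from -0.20 to -0.53, and Dio3 has no value on the second.

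The deposited values are per kilobase of gene span, introns included, and cannot rank genes with introns of different length. With the same RPKM scaling but per kilobase of annotated exon (GENCODE vM21), the order in ESC + F/H-BAZ2ArWT was Rian at 6.14 ± 0.250, Meg3 at 4.89 ± 0.274, Mirg at 1.03 ± 0.0418, Rtl1 at 0.129 ± 0.0131, Dio3 at 0.0292 ± 0.0133 and Dlk1 at 0.0254 ± 0.0111 (SD, n = 4 each). On this scale Rian was above Meg3, while it was below it per kilobase of span. Dio3 and Dlk1 did not differ beyond their spread. In ESC + F/H-BAZ2ArΔTAM the exon-scaled levels were 4.28 ± 0.335 for Rian, 3.37 ± 0.311 for Meg3, 0.913 ± 0.0549 for Mirg, 0.0901 ± 0.0244 for Rtl1, 0.0750 ± 0.0201 for Dio3 and 0.0559 ± 0.0080 for Dlk1. There the order was the same, but neither Rtl1 and Dio3 nor Dio3 and Dlk1 differed beyond their spread.

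Ratios within a library do not depend on its depth. Rian relative to Meg3, in RPKM, was 0.689, 0.681, 0.679 and 0.648 in ESC + F/H-BAZ2ArWT and 0.671, 0.695, 0.685 and 0.671 in ESC + F/H-BAZ2ArΔTAM. The groups overlapped, with means of 0.674 ± 0.0183 and 0.681 ± 0.0116 (SD, n = 4 each), although each RNA alone was lower by 30.4% or 31.0%. Mirg relative to Meg3 was 0.131, 0.142, 0.142 and 0.116 in ESC + F/H-BAZ2ArWT and 0.164, 0.177, 0.172 and 0.170 in ESC + F/H-BAZ2ArΔTAM. All 4 ratios of ESC + F/H-BAZ2ArΔTAM were above all 4 of ESC + F/H-BAZ2ArWT, with means of 0.133 ± 0.0123 and 0.171 ± 0.0056 and a log2 difference of 0.37. Thus Mirg was lower by a smaller share than Meg3. Rtl1 relative to Meg3 overlapped between the groups, at 0.0258 ± 0.0038 and 0.0258 ± 0.0067, with a log2 difference of -0.029.

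**Figure D3:**
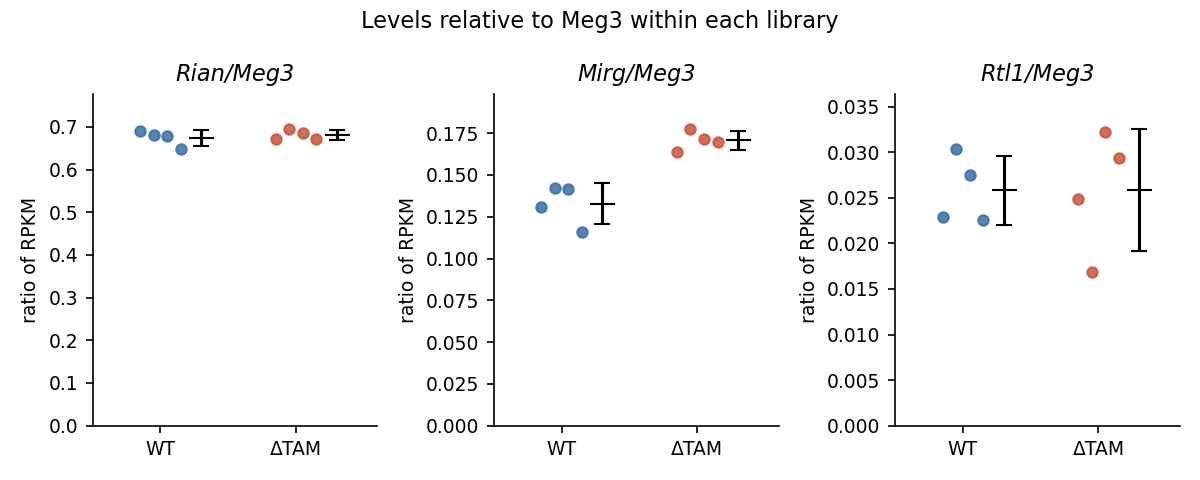
RPKM of Rian, Mirg and Rtl1 divided by that of Meg3 in the same library (y axis from 0) for the 4 WT and 4 ΔTAM libraries, with the mean and 1 SD at the right of the points. The groups overlap for Rian and Rtl1, and the 4 ΔTAM ratios of Mirg, 0.164 to 0.177, lie above the 4 WT ratios.

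Within a group, Rian varied with Meg3, while Mirg did so in 1 group and not in the other. In ESC + F/H-BAZ2ArΔTAM, replicate 1 was the highest for Meg3, Rian and Mirg alike, by 0.17, 0.15 and 0.091 above the group mean on the log2(RPKM + 0.1) scale, and replicate 2 was the lowest for Meg3 and Rian, by 0.11 and 0.083. In ESC + F/H-BAZ2ArWT, replicate 4 was the highest for Meg3, by 0.099, and the lowest for Mirg, with a deviation of -0.068, while replicates 2 and 3 were below the mean for Meg3 and Rian and above it for Mirg. Over the 8 libraries, Pearson's r of Rian with Meg3 was 0.995, which placed Rian at rank 2 of 8999 genes, and r of the deviations from the group means was 0.963, at rank 33. For Mirg the values were 0.836, at rank 911, and 0.393, at rank 1872. The libraries of a group share their line and condition, so that an r over all 8 holds the difference between the groups and is a description only. Outside the locus, the 5 genes whose pattern was most like that of Meg3 were Nckap1, a subunit of the actin-regulating WAVE complex, Wsb1, a ubiquitin ligase adaptor, Plagl1, an imprinted zinc finger factor, Fgf3, a fibroblast growth factor, and Exosc8, a subunit of the RNA exosome. Their r with Meg3 was 0.998, 0.995, 0.994, 0.991 and 0.990. For the deviations from the group means r was 0.981, 0.972, 0.950, 0.916 and 0.902. Their log2 fold changes of RPKM + 0.1 were -0.22, -0.49, -0.28, -0.70 and -0.18. These genes were picked by an r that holds the difference between the groups, so nothing is read from their direction.

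The table has 101 other entries between Dlk1 and Dio3, and 34 of them had a read in some library. Most are miRNAs and snoRNAs, with 23 snoRNA entries of which 5 had a read. Such entries inside a member can share its reads, so they are given by their reads and without a test. DQ267102, a snoRNA in Rian, had 6, 5, 6 and 14 reads in ESC + F/H-BAZ2ArWT and 3, 2, 3 and 4 in ESC + F/H-BAZ2ArΔTAM, with no overlap. Gm25357, another snoRNA in Rian, had 2, 3, 3 and 3 reads against 0, 1, 0 and 0, also with no overlap, while Gm24564, also in Rian, had 9, 4, 8 and 6 against 10, 3, 5 and 11. In Mirg, the entry of Mir453 had 0, 2, 4 and 2 reads against 0 in each library of ESC + F/H-BAZ2ArΔTAM, so that the groups overlapped at 0. Gm26945, a long noncoding RNA entry in Rian, had 18 to 30 reads in ESC + F/H-BAZ2ArWT and 13 to 25 in ESC + F/H-BAZ2ArΔTAM, with a log2 difference of -0.13 and an SE of 0.15 on RPKM + 0.1. The other entries that passed the filter (Mir493, Mir3070b, Gm27350, Mir341, Mir1188, Gm23600, Mir329, Mir679, Mir541, Mir369, Mir3072 and, beyond Dio3, Gm17111) had at most 7 reads in a library, and their groups overlapped.

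Genes flanking the domain were compared with limma on log2(RPKM + 0.1). Its test over 9000 genes called 3225 of them, 35.8%, at an adjusted p under 0.05. Limma log2 fold changes of flanking and listed genes are on this scale, which understates the change of low genes. Dync1h1, the dynein heavy chain, had 2.05 ± 0.0406 RPKM in ESC + F/H-BAZ2ArWT and 1.99 ± 0.0700 RPKM in ESC + F/H-BAZ2ArΔTAM (SD, n = 4 each). Its log2 fold change was -0.04 (adjusted p 0.328). Hsp90aa1, a heat shock chaperone, had 37.5 ± 1.89 RPKM and 36.0 ± 2.28 RPKM, with a log2 fold change of -0.06 and an adjusted p of 0.436 in limma. Ppp2r5c, a regulatory subunit of protein phosphatase 2A and the nearest coding gene beyond Dio3 with reads, did not overlap between the groups, at 0.249 ± 0.0122 RPKM and 0.228 ± 0.0024 RPKM. Its log2 fold change was -0.09 with a limma adjusted p of 0.0599, and limma-voom gave -0.13 (adjusted p 0.0101).

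On the other side, Begain, which lies upstream of Dlk1, had 13, 14, 12 and 18 reads in ESC + F/H-BAZ2ArWT and 23, 16, 29 and 27 reads in ESC + F/H-BAZ2ArΔTAM. It was below the filter on RPKM, and limma-voom gave a log2 difference of 0.73 with an SE of 0.24 and an adjusted p of 0.016. Begain thus rose, and the reads of Dlk1 were higher as well, both from few reads. Wdr25, a WD repeat gene farther upstream, had a log2 difference of -0.12 and an adjusted p of 0.469 in limma-voom, and Wdr20 beyond Hsp90aa1 -0.04 and 0.738.

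**Figure D4:**
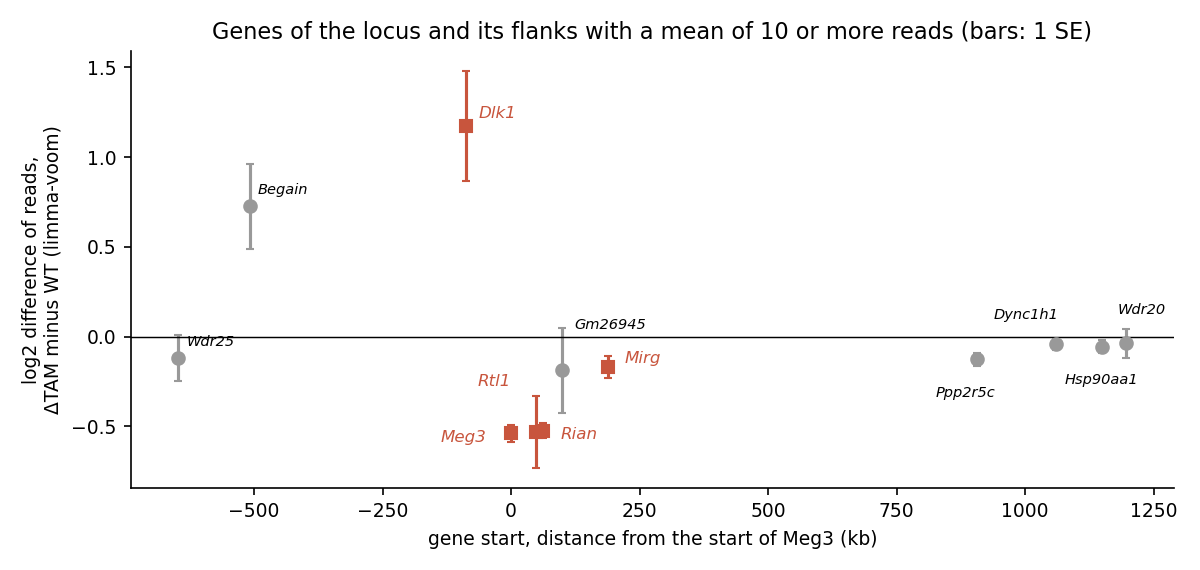
Log2 difference of recovered reads between ΔTAM and WT (limma-voom, y axis, bars of 1 SE) against the distance of the gene's start from that of Meg3 in kb (x axis), for members (squares) and other genes (circles) with a mean of at least 10 reads. Meg3, Rtl1 and Rian lie between -0.52 and -0.54, Dlk1 and Begain lie at 1.17 and 0.73, and the 4 genes beyond Dio3 lie between -0.13 and -0.04.

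Factors that keep or erase imprints at this locus and others changed in either direction. Of 20 listed, 17 passed the filter, of which 7 rose and 5 fell in limma. That is 70.6% called, against 35.8% over all genes tested, of which 19.9% rose and 15.9% fell. This list and those below were chosen with earlier results of these data known, so their shares called are a description only. The list had a median log2 fold change of 0.0086 against 0.011 over all genes tested. Dppa3, which protects maternal methylation in the zygote and limits maintenance methylation, rose, from a range of 0.271–0.347 RPKM in ESC + F/H-BAZ2ArWT to one of 1.23–1.50 RPKM in ESC + F/H-BAZ2ArΔTAM, a log2 fold change of 1.80 with an SE of 0.075 and an adjusted p of 8.94e-06 in limma. Dnmt3b, a de novo DNA methyltransferase, rose by 0.54 (adjusted p 6.06e-05), and Setdb1, the H3K9 methyltransferase recruited through ZFP57 and TRIM28, by 0.20 (adjusted p 0.00204). Zfp57 itself fell by 0.18 (adjusted p 0.00204) in limma, while Trim28 rose by 0.19 (adjusted p 0.0148). The polycomb genes Ezh2 and Jarid2 fell by 0.11 and 0.14, with limma adjusted p of 0.0268 and 0.00381. That of Ezh2 was 0.0535 with the replicate number as a block. The polycomb genes Eed and Suz12 had log2 fold changes of -0.16 and 0.0086, with limma adjusted p of 0.00651 and 0.908. Dnmt1, the maintenance methyltransferase, had a log2 fold change of -0.03 (adjusted p 0.309) in limma.

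Maternally expressed imprinted genes of other loci were mostly not called. Of 20 listed, 7 passed the filter, and limma called 1 of them, 14.3% against 35.8% over all genes. This was Cd81, a tetraspanin. It fell, from a range of 2.59–2.82 RPKM in ESC + F/H-BAZ2ArWT to one of 1.98–2.16 RPKM in ESC + F/H-BAZ2ArΔTAM, a log2 fold change of -0.38 with an SE of 0.038 and an adjusted p of 2.93e-04. The median of the list was -0.051 against 0.011 over all genes tested. With limma-voom on reads, 12 of the list were tested and 4 called, 2 in each direction, against 43.8% called of the 12657 genes. Of these, Grb10, a growth-restricting adaptor protein, rose by 0.86 (adjusted p 1.20e-09). H19, a noncoding RNA of an imprinted domain on chromosome 7, had a mean of 8 reads and was not tested.

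Paternally expressed imprinted genes of other loci moved in either direction. Of 25 listed, 13 passed the filter, of which 3 rose and 4 fell in limma (53.8% called, against 35.8% over all genes, with 19.9% higher and 15.9% lower), and 6 did not pass the test. Slc38a4, an amino acid transporter, rose, from a range of 0.123–0.141 RPKM in ESC + F/H-BAZ2ArWT to one of 0.625–0.657 RPKM in ESC + F/H-BAZ2ArΔTAM, a log2 fold change of 1.67 with an SE of 0.032 and an adjusted p of 4.16e-07. On reads, limma-voom gave Slc38a4 a log2 difference of 2.28. Nnat, a membrane proteolipid, rose by 0.54 (adjusted p 0.0246) in limma, which was 0.0606 without the filter. Peg10, a retrotransposon-derived Gag-Pol gene related to Rtl1, fell, from a range of 2.38–2.46 RPKM in ESC + F/H-BAZ2ArWT to one of 1.45–1.90 RPKM in ESC + F/H-BAZ2ArΔTAM, a log2 fold change of -0.51 with an SE of 0.071 and an adjusted p of 0.00129. Peg3, Mest and Plagl1 also fell, by 0.31, 0.21 and 0.28 with limma adjusted p of 0.0211, 0.00971 and 0.00193, and Zrsr1 rose by 0.33 (adjusted p 0.0137). The groups of Peg3 overlapped, and its adjusted p was 0.0508 without the filter. The median of the list was -0.018 against 0.011. With limma-voom, 19 were tested, of which 5 rose and 9 fell, against 43.8% called in either direction over all genes.

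Dlk1 is a noncanonical member of the Notch pathway, a signalling system between neighbouring cells. Of 23 listed pathway genes, 9 passed the filter, of which 5 fell and 1 rose in limma (66.7% called, against 35.8% over all genes, with 15.9% lower and 19.9% higher), with a median log2 fold change of -0.23 against 0.011 over all genes tested. The receptor Notch4 fell, from a range of 0.260–0.286 RPKM in ESC + F/H-BAZ2ArWT to one of 0.141–0.166 RPKM in ESC + F/H-BAZ2ArΔTAM, a log2 fold change of -0.54 with an SE of 0.040 and an adjusted p of 8.35e-05. The receptor Notch3 fell by 0.45 (adjusted p 1.23e-04), and the target gene Hes1 by 0.34 (adjusted p 0.00109). Both receptors are low in RPKM, and on reads limma-voom gave -0.81 for Notch4 and -0.88 for Notch3. The ligand genes Jag1 and Jag2 fell by 0.23 and 0.28, with limma adjusted p of 0.0107 and 0.00517, and Rfng, a glycosyltransferase that modifies the receptors, rose by 0.20 (adjusted p 0.0425). The groups of Rfng overlapped, and its limma adjusted p was 0.101 with the replicate number as a block, 0.0885 without the filter, and 0.0572 and 0.0791 with the other scalings. The receptor Notch1 had a log2 fold change of -0.03 (adjusted p 0.669), and Rbpj, the DNA-binding factor of the pathway, -0.05 (adjusted p 0.352) in limma. With limma-voom, 14 of the list were tested, of which 2 rose and 7 fell, against 43.8% called over all genes. The receptor Notch2, below the filter on RPKM, rose by 0.28 in limma-voom (adjusted p 0.00109). Mfng and Dner, also below it, fell, with limma-voom log2 differences of -1.44 and -2.07 (adjusted p 3.86e-07 and 2.00e-06).

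In thyroid hormone handling, the pathway of Dio3, 1 gene was called in each direction. Of 16 listed genes, 4 passed the filter on RPKM per gene span, of which 1 fell and 1 rose in limma (50% called, against 35.8% over all genes). On reads, limma-voom tested 8, of which 1 rose and 1 fell, against 43.8% called over all genes. The other deiodinase genes Dio1 and Dio2 had a mean of under 1 read a library. Klf9, a target of the hormone receptors, fell, from a range of 0.687–0.715 RPKM in ESC + F/H-BAZ2ArWT to one of 0.558–0.582 RPKM in ESC + F/H-BAZ2ArΔTAM, a log2 fold change of -0.27 with an SE of 0.024 and an adjusted p of 1.67e-04. The coactivator gene Med1 rose by 0.096 with a limma adjusted p of 0.029. With the replicate number as a block, limma gave Med1 an adjusted p of 0.0569, which left 1 call in the list.

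Of 21 names for retrotransposon-derived Gag-like genes, the family of Rtl1, 7 are in the table and 3 passed the filter, of which 1 rose and 1 fell in limma (66.7% called, against 35.8% over all genes). Pnma5 rose, from a range of 1.87–2.32 RPKM in ESC + F/H-BAZ2ArWT to one of 3.25–3.63 RPKM in ESC + F/H-BAZ2ArΔTAM, a log2 fold change of 0.74 with an SE of 0.073 and an adjusted p of 2.69e-04 in limma. Peg10 fell, as given above, and Arc, a Gag-derived synaptic protein, had a log2 fold change of -0.09 (adjusted p 0.466) in limma. Pnma2, below the filter, rose by 1.02 in limma-voom with an adjusted p of 1.90e-04.

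**Figure D5:**
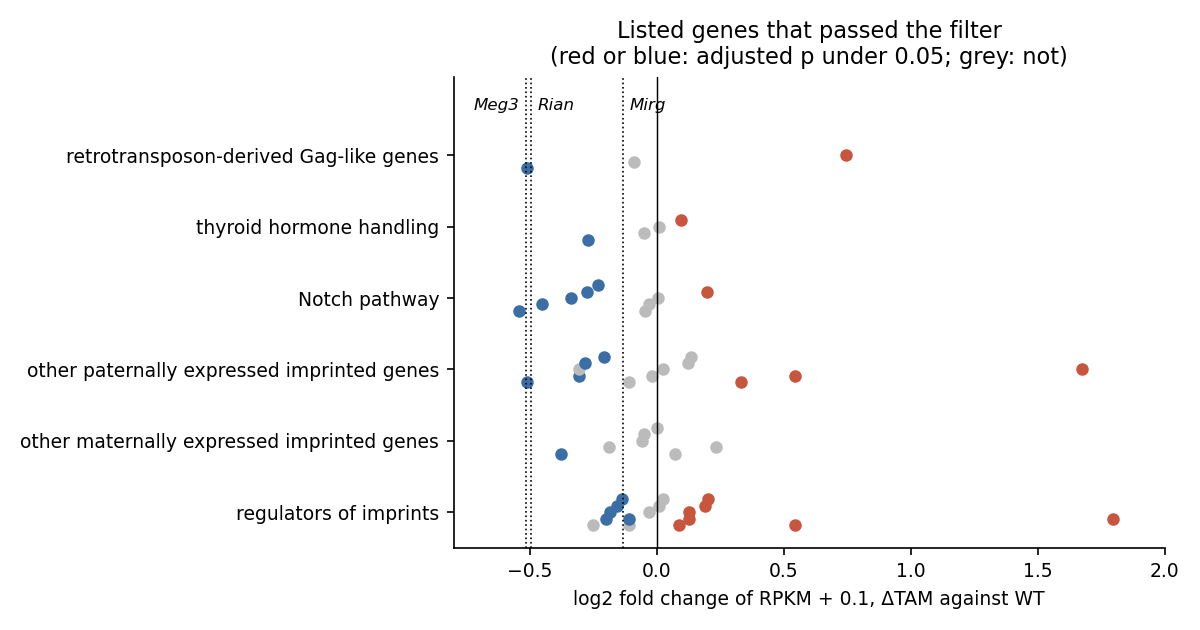
Log2 fold change of RPKM + 0.1 between ΔTAM and WT (x axis) for the genes of the 6 lists that passed the filter (y axis, 1 point a gene, spread vertically for legibility), red where higher and blue where lower at a limma adjusted p under 0.05 and grey otherwise. Dotted lines mark Meg3 at -0.52, Rian at -0.49 and Mirg at -0.13, and among the 7 maternally expressed genes of other loci Cd81, at -0.38, is the coloured point.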

How the data were processed

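RNA of 8 libraries of E14 ESCs was compared between ESC + F/H-BAZ2ArWT (n = 4) and ESC + F/H-BAZ2ArΔTAM (n = 4), grouped by their labels. Libraries were made from polyadenylated RNA with a stranded kit. The authors filtered out ribosomal reads and adapter sequence, aligned the rest to mm10 with STAR, took the coverage of each gene's exons and deposited RPKM, 1 column a library. The annotation release and the use of strand in counting are not given in the sources used here. No column of samples was left unused.

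The deposited RPKM values multiplied by gene span came in whole multiples of a step for each library (99.5% of values above 0 within 0.05 of a read), which gave the reads per gene. Repeated entries of a symbol were set aside (386), leaving 50902 genes. RPKM per gene span depends on intron length, so that genes were ranked by level only per kilobase of exon (GENCODE vM21). The ratios to Meg3 and the marker sums are in RPKM per gene span. PCR reads without molecular identifiers were counted, and a count of 0 allows up to 3 reads, for counting error only. For Meg3 this is 0.0017 to 0.0022 RPKM and for Dio3 0.026 to 0.034 RPKM.

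Differences were fitted with limma 3.58.1 in R 4.3.3 (lmFit, eBayes with a trend) on log2(RPKM + 0.1), which understates the change of low genes, for the 9000 genes whose mean over the libraries reached 0.1 RPKM, with Benjamini-Hochberg adjustment over them. Values of Dlk1, Rtl1 and Dio3, below that filter, come from the fit without it. Limma-voom took the recovered reads, for the 12657 genes averaging 10 or more. Scripts were tested on simulated data. Sequences were taken from RefSeq (GRCm38.p6) and read with Python 3.11.15.

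Members and lists were chosen with earlier results of these data known. Genes named are the members, every neighbour within 500 kb past the filter, up to 3 called genes a list with the largest change, and the 5 genes most like Meg3. In all, 1 gene was left out of the lists and is not reported here. Other genes were named from the lists after their values were seen. Same-numbered libraries of the groups deviated together (r of 0.332, 0.144, 0.196 and 0.237 over genes), so the replicate numbers of the titles were taken to pair them, and a fit with the number as a block was run beside fits with other pseudocounts, filters, scalings and variance models and with each library left out.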

Additional observations from a re-analysis of the deposited data

Results flagged for a closer look

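A library stood apart within its group in 11 of the 82 groups of 4 examined, by the gap to its nearest neighbour as a share of the group's range. Chance alone gives such a gap in about 5% of groups, and many of these rest on a few reads.

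Among the members, replicate 2 of ESC + F/H-BAZ2ArΔTAM stood apart for Rtl1, at 0.0307 RPKM from 15 reads, and for Dio3, at 0.045 RPKM from 4 reads. Without it the log2 difference of Rtl1 on RPKM + 0.1 was -0.13 and that of Dio3 was 0.52. Replicate 2 had the fewest reads on genes of all 8 libraries, at 6573212.

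Among neighbours and entries inside the locus, replicate 4 of ESC + F/H-BAZ2ArΔTAM stood apart for Ppp2r5c at 0.231 RPKM and for Mir3070b at 0.391 RPKM, and replicate 1 for Gm27350 at 0.228 RPKM. Replicate 4 of ESC + F/H-BAZ2ArWT stood apart for DQ267102 at 3.82 RPKM and for Mir493 at 0.236 RPKM, and replicate 3 for Mir341 at 0.216 RPKM. Gm25357 had replicate 1 of ESC + F/H-BAZ2ArWT apart at 0.567 RPKM and replicate 2 of ESC + F/H-BAZ2ArΔTAM apart at 0.322 RPKM. Among listed genes, replicate 1 of ESC + F/H-BAZ2ArWT stood apart for Hes1 at 2.57 RPKM.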

How the results depend on the processing

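The direction of all 6 members and of the ratio of Mirg to Meg3 held under every alternative that gave a value. The ratio of Rian to Meg3 stayed near 0, from -0.0057 to 0.024 on the log2 scale with a library left out. A pseudocount of 1 RPKM made the log2 differences smaller by construction, at -0.38 for Meg3, -0.32 for Rian, -0.045 for Mirg, 0.023 for Dlk1, -0.031 for Rtl1 and 0.063 for Dio3. A pseudocount of 0.01 RPKM gave 0.79 for Dlk1, -0.48 for Rtl1 and 1.14 for Dio3, and limma-voom gave 1.17 for Dlk1 and -0.53 for Rtl1. With the replicate number as a block the log2 difference of Meg3 was -0.52, and limma called 2796 genes. The block ended the calls of Med1, Ezh2, Rfng and Uhrf1, a listed cofactor of maintenance methylation (adjusted p 0.03 without the block and 0.0632 with it), left 1 call among thyroid hormone genes, as did quantile normalization, and changed no other limma call among the listed genes and the genes flanking the domain. Uhrf1 also lost its limma call with median-ratio scaling (adjusted p 0.0541) and quantile normalization (0.449). Of the other listed regulators, Rad21 lost it with quantile normalization (0.0872) and Tet2 without the filter (0.0832). Calls of entries between Dlk1 and Dio3 are not given. Over all genes, limma called 3225, a filter of at least 1 RPKM, which tests fewer genes, 989, and limma-voom, which tests other genes on another scale, 5548. That filter left 6 calls among regulators of imprints, 3 among paternally expressed genes, 2 in the Notch pathway and 0 in thyroid hormone handling. Among maternally expressed genes 2 were called without a filter and 4 with limma-voom, and among paternally expressed genes 14 with limma-voom.

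With each library left out in turn, limma called 2618 to 3051 genes, 1 to 2 maternally expressed genes (2 without replicate 3 or 4 of ESC + F/H-BAZ2ArWT or replicate 1 of ESC + F/H-BAZ2ArΔTAM) and 1 to 2 thyroid hormone genes (1 without replicate 2, 3 or 4 of ESC + F/H-BAZ2ArWT or replicate 1, 2 or 3 of ESC + F/H-BAZ2ArΔTAM). In these fits limma called 9 to 11 regulators of imprints, against 12 with all libraries. It called 5 to 7 paternally expressed genes and 5 to 6 genes of the Notch pathway. Nnat lost its call without replicate 1, 3 or 4 of ESC + F/H-BAZ2ArΔTAM, with adjusted p from 0.0208 to 0.0581 over the 8 fits. Med1 lost it in 6 fits, as did the listed regulators Tet2 (adjusted p from 0.0264 to 0.0957) and Uhrf1 (0.021 to 0.0822). Rfng lost it in 7 fits, all but that without replicate 3 of ESC + F/H-BAZ2ArWT, with adjusted p from 0.00958 to 0.102. Ezh2 lost it without replicate 1 or 4 of ESC + F/H-BAZ2ArWT or replicate 1 or 2 of ESC + F/H-BAZ2ArΔTAM (0.0339 to 0.0651), and Peg3 without replicate 1 or 4 of ESC + F/H-BAZ2ArWT or replicate 2 or 3 of ESC + F/H-BAZ2ArΔTAM (0.00458 to 0.0566). Over all alternatives the adjusted p was 0.00625 to 0.0606 for Nnat, 0.0243 to 0.0693 for Med1 and 0.0101 to 0.134 for Ppp2r5c, which passed with limma-voom, with each of the other scalings and without replicate 3 of ESC + F/H-BAZ2ArWT.

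Entries of few reads turned direction. Gm24564 went from 0.0055 to -0.0083 with median-ratio scaling and -0.018 with quantile normalization, Mir1188 from -0.0090 to 0.013 with a pseudocount of 0.01 RPKM, and Gm23600 from 0.19 to -0.097 with one of 1 RPKM. With a library left out, log2 fold changes ranged from -0.24 to 0.26 for Mir1188, -0.24 to 0.29 for Gm24564, -0.73 to 0.72 for Gm23600, -0.55 to 0.33 for Mir679, -0.85 to 0.018 for Mir541, -0.36 to 0.30 for Mir369 and -0.040 to 0.30 for Gm17111. The cause was not tested. Depth limits Dlk1, Dio3 and all small RNA entries, whose levels rest on a few reads a library, and it is not a limit for Meg3 and Rian.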
